A study of Mus musculus with 12 samples.

Results

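The OAS genes of the mouse encode the 2',5'-oligoadenylate (2-5A) synthetases and their relatives. The 8 genes described here are Oas1a, Oas1b, Oas1c, Oas1g, Oas2, Oas3, Oasl1 and Oasl2, taken by symbol from the 33641 genes of the deposited tables. All 8 were among the 15130 genes with enough reads to be tested. The libraries came from mouse peritoneal macrophages, untreated at day 0, in 4 genotypes of 3 libraries each: wild type (WT), the single knockouts SAMHD1 KO and MDA5 KO, and the double knockout SAMHD1 MDA5 DKO. SAMHD1 hydrolyses deoxynucleoside triphosphates. MDA5, the product of Ifih1, detects long double-stranded RNA in the cytosol. The labels give no strain, allele or age, and leave unsaid whether libraries of the same genotype are from separate animals. The p-values therefore measure the spread between these libraries, which may be technical.

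Synthetases bind double-stranded RNA and make 2-5A, a short-lived messenger. The pathway is part of the antiviral defence of the cell. Most of these genes are known to be induced by type I interferon in macrophages, through an element of the promoter called the interferon-stimulated response element (ISRE).

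The members lie in 2 groups on chromosome 5 of GRCm38. Oasl2 (114896936 to 114912234) and Oasl1 (114923240 to 114937915) sit beside each other on the plus strand. The other 6 lie between the start of Oas2 at 120730333 and the end of Oas1a at 120907521. In that stretch the order is Oas2, Oas3 (120753098 to 120777661), Oas1c (120800194 to 120812514), Oas1b (120812635 to 120824163), Oas1g (120876142 to 120887613) and Oas1a (from 120896256). Oas1b is on the plus strand and the other 5 are on the minus strand. Oas1b and Oas1c point away from each other with 120 bases between them. The annotation of GENCODE release M21 lists Oas1b as a polymorphic pseudogene and the other 7 as protein coding.

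Promoter sequences of RefSeq (GRCm38.p6) were found for 6 of the 8 members: Oas1a, Oas1c, Oas1g, Oas3, Oasl1 and Oasl2. The core of the ISRE, taken as GAAA, any 2 bases and GAAA again, was searched on both strands in the 250 bases before each start. It was found in 4 of these 6, against 978 of 32851 promoters of the same length (2.98%). The stretches of 80 bases that hold the matches are shown because they set the Oas1 genes beside Oas3. Capitals mark the bases of all matches, which overlap in Oas1a, Oas1c and Oas1g, and each stretch reads 5' to 3' along its gene.
Oas1a (chr5:120907526-120907605, minus strand): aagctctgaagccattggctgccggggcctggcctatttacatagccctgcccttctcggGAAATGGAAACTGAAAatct
Oas1g (chr5:120887614-120887693, minus strand): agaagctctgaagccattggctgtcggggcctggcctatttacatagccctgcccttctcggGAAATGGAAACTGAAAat
Oas1c (chr5:120812555-120812634, minus strand): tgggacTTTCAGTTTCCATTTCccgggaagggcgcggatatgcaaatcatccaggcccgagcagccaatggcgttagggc
Oas3 (chr5:120777690-120777769, minus strand): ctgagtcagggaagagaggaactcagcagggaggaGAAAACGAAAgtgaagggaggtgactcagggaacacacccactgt

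Oas1a and Oas1g carry the same 16 bases in capitals, 20 to 5 bases before the start of Oas1a and 18 to 3 before that of Oas1g. Their promoters were identical at 82.8% of aligned positions, while the other pairs among the 6 promoters were identical at 45.7% to 50.2%. In the stretch of Oas1c the same 16 bases stand on the opposite strand. They begin 114 bases before the start of Oas1c and lie 7 to 22 bases before the annotated start of its neighbour Oas1b. Oas3 held 1 match, 75 to 66 bases before its start. The letters were not in the 250 bases before the starts of Oasl1 and Oasl2. A match describes letters only, and no binding was measured here.

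The likeness of Oas1a and Oas1g extends to their transcripts. Of the 50-base stretches in the transcripts of Oas1a, 57.6% also occur in another gene, all of them in Oas1g, and 45.7% of those of Oas1g occur elsewhere. The share was 15.1% in Oas1c, 2.98% in Oas1b and under 1% in Oas2, Oas3, Oasl1 and Oasl2. The levels of Oas1a and Oas1g are therefore uncertain where the counting could divide reads between them.

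Read numbers were recovered from the deposited values, and a value below is normalised reads, which are reads divided by the library's size factor, with libraries 1, 2 and 3 given in that order. Totals per library ran from 33234361 to 58345425 reads. The targeted genes followed the labels: Samhd1 gave 1747 to 4960 normalised reads in the 6 libraries without SAMHD1 and 7067 to 17462 in the other 6, and Ifih1 gave at most 41.94 in the 6 without MDA5 and 816.1 to 3745 in the other 6. The library WT 3 stood apart from all others. Its level of the macrophage gene Lyz2, which encodes lysozyme, was 216000, against 1460000 to 4930000 in the other 11, while its level of the macrophage marker Adgre1, 243000, was the highest of the 12. SAMHD1 KO 2 and 3 were far closer to each other than any other pair of a genotype. Of the genes compared, 20.1% differed between them beyond counting noise, against 50.4% to 81.2% in the other pairs. They were kept as 2 libraries, but this cannot tell whether they are independent. Preparations from the same source could also differ beyond counting noise. WT 2 held the highest sums of the B cell (3090), T cell (222) and mast cell (7380) markers, and plasmacytoid dendritic cell markers summed to at most 46.2 in any library. The part of these differences in the results below was not tested, except where values without WT 3 are given. In bulk RNA, fewer cells of a type and less RNA per cell cannot be told apart.

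Per kilobase of transcript, Oas1a was the most abundant member in WT, at 2300 ± 606 normalised reads (SD, n = 3). Oas1g followed at 392 ± 84.0, Oasl2 at 347 ± 230, Oas2 at 283 ± 226 and Oas3 at 212 ± 141, and these neighbours overlapped. Oas1c was at 137 ± 58.1, Oas1b at 38.2 ± 17.1 and Oasl1 at 27.5 ± 18.9. The family's other mouse genes were almost silent: the highest read number in any library was 8 for Oas1d, 12 for Oas1e, 1 for Oas1f and 3 for Oas1h, and none of these 4 passed the filter on low reads. Together the 8 members took 352, 236 and 181 CPM in WT and 514, 366 and 357 with SAMHD1 knocked out. With MDA5 knocked out they took 204, 112 and 172, and with both knocked out 454, 459 and 189. The SAMHD1 KO libraries were all above the WT and MDA5 KO libraries in this sum, but the lowest of them (357) was only just above the highest of WT (352). SAMHD1 MDA5 DKO 3 lay among the MDA5 KO libraries.

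**Figure D1:**
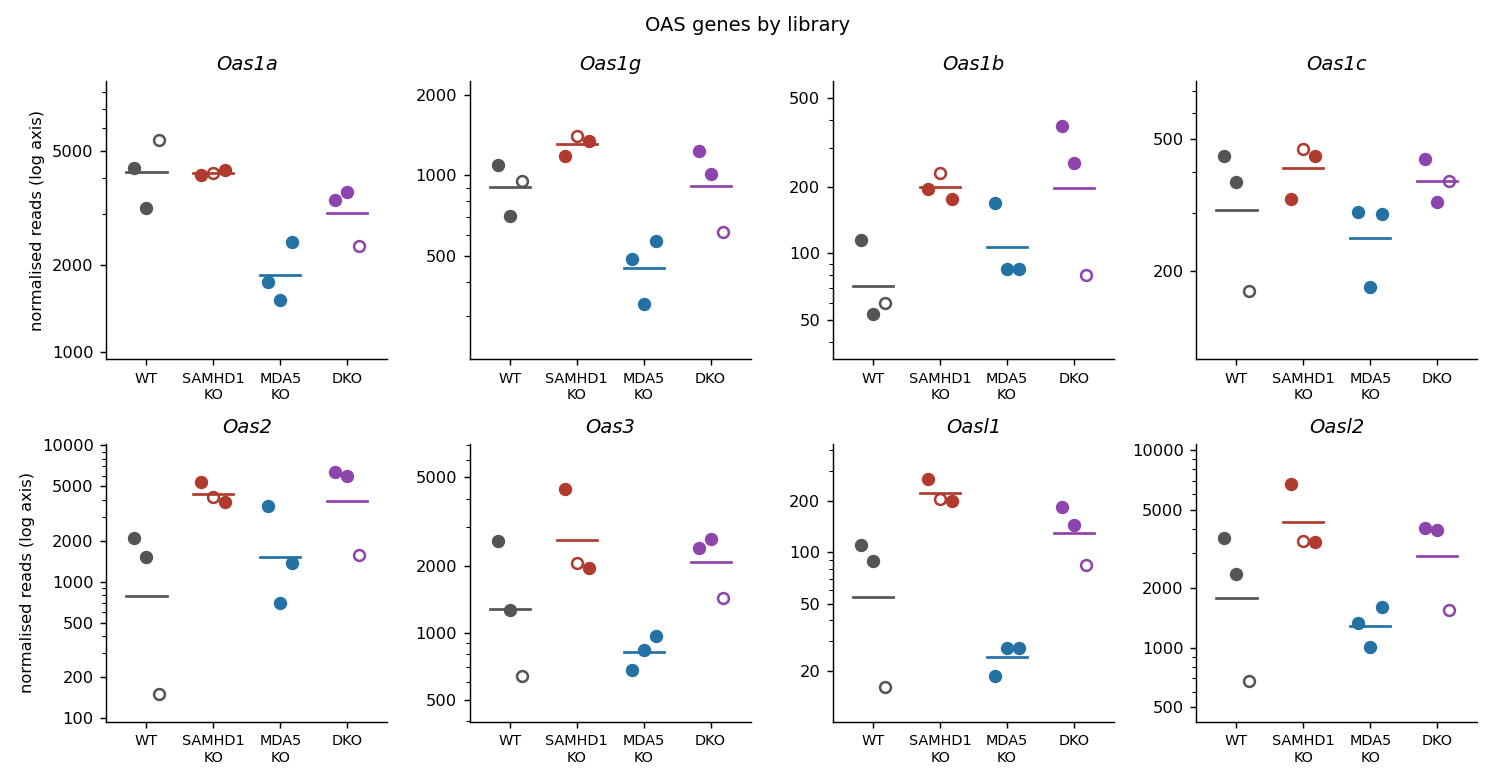
Normalised reads (log axis) of the 8 OAS genes in each of 12 libraries, by genotype. Points are libraries 1, 2 and 3 from left to right, and lines are means on the log scale. Open points are WT 3, SAMHD1 KO 2 and SAMHD1 MDA5 DKO 3, whose deposited values the authors had shifted against those of the other libraries. MDA5 KO holds the lowest mean of Oas1a, Oas1g, Oas1c, Oas3, Oasl1 and Oasl2, and WT 3 the lowest value of Oas2, Oas3, Oasl1, Oasl2 and Oas1c.

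The Oas1 genes encode the small synthetases and their relatives. Oas1a, an active synthetase of the mouse, gave 4365, 3169 and 5453 normalised reads in WT, against 4103, 4175 and 4264 in SAMHD1 KO. It gave 1745, 1509 and 2412 in MDA5 KO, and 3367, 3600 and 2329 when both genes were knocked out. WT and SAMHD1 KO overlapped fully, MDA5 KO lay below both, and the double knockout lay below SAMHD1 KO and reached into MDA5 KO. Its close copy Oas1g, also an active synthetase, gave 1093, 705.7 and 955.3 in WT, against 1176, 1404 and 1343 in SAMHD1 KO. It gave 487.5, 330.9 and 570.6 in MDA5 KO, and 1236, 1009 and 617.5 when both genes were knocked out. The 3 MDA5 KO libraries were the lowest of the 12, and SAMHD1 KO lay above WT.

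Oas1b, known for flavivirus resistance in mice that carry its full-length allele, gave 115.3, 53.41 and 59.45 in WT, against 194.6, 230.7 and 176.1 in SAMHD1 KO. It gave 168.5, 84.92 and 85.32 in MDA5 KO, and 374.1, 256.5 and 79.99 when both genes were knocked out. SAMHD1 KO lay above WT and MDA5 KO, and the double knockout ran from SAMHD1 MDA5 DKO 3, among the WT values, to the highest value of the 12. Oas1c, the neighbour that shares the 120-base gap, gave 444.4, 370.8 and 174.3 in WT, against 330.1, 468.3 and 445.1 in SAMHD1 KO. It gave 301.9, 179.8 and 298.2 in MDA5 KO, and 436.8, 323.4 and 373.6 when both genes were knocked out. Both genotypes without SAMHD1 lay above MDA5 KO and both overlapped WT.

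The larger synthetases have repeats of the synthetase domain. Oas2 gave 2110, 1512 and 151.3 in WT, against 5349, 4196 and 3813 in SAMHD1 KO. It gave 3609, 699.4 and 1374 in MDA5 KO, and 6417, 5964 and 1571 when both genes were knocked out. It was the most uneven member within genotypes: WT 3 was far under the other WT libraries, and the third double-knockout library lay inside the MDA5 KO range. Oas3, the main 2-5A producer in human cells, gave 2593, 1268 and 636.4 in WT, against 4418, 2059 and 1950 in SAMHD1 KO. It gave 682.5, 835.5 and 963.3 in MDA5 KO, and 2395, 2631 and 1432 when both genes were knocked out. All 6 libraries without SAMHD1 lay above MDA5 KO, while WT reached from below MDA5 KO into SAMHD1 KO.

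The OAS-like genes carry ubiquitin-like domains. Oasl1, which in mice holds back translation of Irf7, had the fewest reads of the members, 12 in WT 3. It gave 109.7, 89.36 and 16.21 in WT, against 271.1, 206.6 and 200.5 in SAMHD1 KO. The MDA5 KO libraries held 18.81, 27.47 and 27.52, and the double-knockout libraries 183.9, 144.5 and 83.89. The 3 SAMHD1 KO libraries were the highest of the 12, MDA5 KO lay below both genotypes without SAMHD1, and WT 3 lay below MDA5 KO. Oasl2, the other OAS-like gene, gave 3600, 2367 and 677 in WT, against 6728, 3467 and 3448 in SAMHD1 KO. It gave 1334, 1014 and 1613 in MDA5 KO, and 4031, 3954 and 1548 when both genes were knocked out. SAMHD1 KO lay above MDA5 KO and overlapped WT, and the double knockout reached into MDA5 KO through SAMHD1 MDA5 DKO 3.

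Ordered by mean log2 level, SAMHD1 KO was highest for every member but Oas1a, where WT and SAMHD1 KO differed by 0.02 and overlapped. The double knockout came next for all members but Oas1a. MDA5 KO was lowest for 6 members, and WT was lowest for Oas1b and Oas2. Of the steps between neighbours in these orders, 3 showed no overlap between libraries: from SAMHD1 KO down to the double knockout in Oas1a and in Oasl1, and from WT down to MDA5 KO in Oas1g. In the other steps the neighbours overlapped.

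The comparison of the single knockouts, SAMHD1 KO minus MDA5 KO, had the largest median difference over the members. All 8 members were higher in SAMHD1 KO, as were 48.9% of all genes tested, and in all 8 the 3 libraries of SAMHD1 KO lay above the 3 of MDA5 KO, which held for 7.15% of all genes. Oasl1 had the largest log2 difference, 3.16 ± 0.60 (SE, n = 3 against 3), about 8.91-fold, with a limma adjusted p of 0.170. Oas1g differed by 1.53 ± 0.29 with an adjusted p of 0.163, Oas1a by 1.17 ± 0.25 (0.211), Oasl2 by 1.73 ± 0.55 (0.454) and Oas3 by 1.67 ± 0.46 (0.376). Oas2, Oas1b and Oas1c differed by 1.54 ± 0.88, 0.89 ± 0.52 and 0.69 ± 0.34, with adjusted p of 0.578, 0.584 and 0.540. Oas2 and Oas1b differed more in SAMHD1 KO minus WT (2.49 and 1.46), and Oas1a slightly more in MDA5 KO minus WT (-1.19). In SAMHD1 KO minus MDA5 KO the median over the members was 1.53, against -0.01 over all genes tested.

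Of the 8 members, 0 passed limma's adjusted p of 0.05 in that comparison, while 1 of all genes did (0.00661%), the targeted Ifih1. At an unadjusted p of 0.05 limma gave 5 members, all higher, against 4.64% of all genes. The authors' deposited table, read in the same direction, called 5 members higher: Oas1a (log2 fold change 1.0), Oas1g (1.22), Oas3 (1.51), Oasl1 (2.07) and Oasl2 (1.56). Among all genes, 0.481% were called higher there. The limma call turned on the libraries in the fit: without WT 3, Oas1a (adjusted p 0.0331), Oas1g (0.0331) and Oasl1 (0.00317) passed, with 0.317% of all genes. Without SAMHD1 KO 1, Oas1g did (0.0484), with 1.16% of all genes. In a fit of these 2 genotypes alone, 4 members passed, Oas1a, Oas1g, Oasl1 and Oasl2, with 0.311% of all genes. With weights for library quality all 8 members passed, but so did 44.4% of all genes. Marker sums of other cell types also differed between these genotypes without overlap. The 4 erythroid markers summed to 372 to 585 normalised reads in SAMHD1 KO and to at most 102 in MDA5 KO, while the B cell markers (66.0 to 87.3 against 115 to 187) and the plasmacytoid dendritic cell markers (2.45 to 6.89 against 7.70 to 46.2) were lower in SAMHD1 KO. The part of these markers in the result was not tested.

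**Figure D2:**
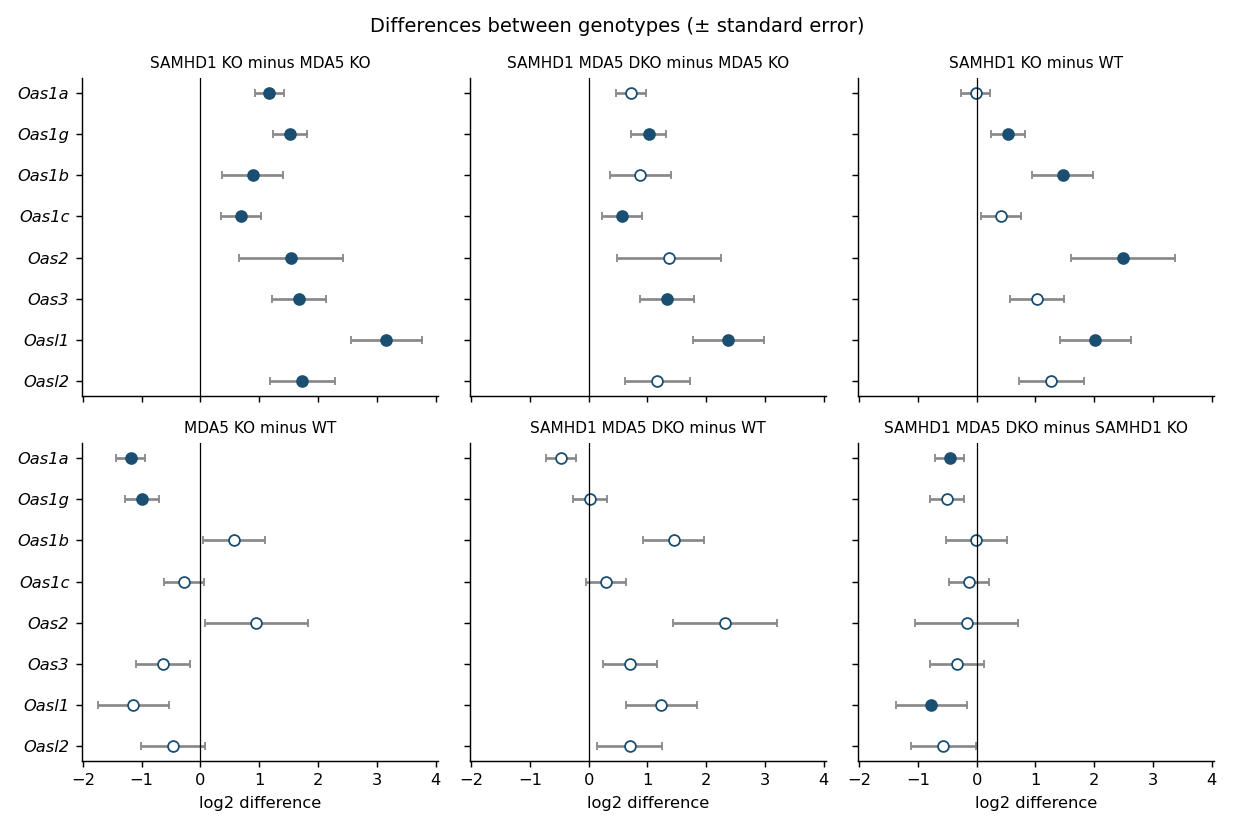
Log2 differences of the 8 OAS genes in 6 comparisons of genotypes, with bars for the standard error of limma. Filled symbols are genes whose 3 libraries of one genotype do not overlap the 3 of the other; in SAMHD1 KO minus MDA5 KO all 8 members are filled, and in SAMHD1 MDA5 DKO minus WT none is.

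The loss of SAMHD1 where MDA5 is also missing was read from SAMHD1 MDA5 DKO minus MDA5 KO. All 8 members were higher in the double knockout, as were 49.6% of all genes, and their median difference was 1.09, against 0.00 over all genes. Oasl1 (2.38 ± 0.60), Oas3 (1.34 ± 0.46), Oas1g (1.02 ± 0.29) and Oas1c (0.57 ± 0.34) were higher in all 3 double-knockout libraries than in any MDA5 KO library, which was so for 2.93% of all genes. Oas2 (1.37 ± 0.88), Oasl2 (1.17 ± 0.55), Oas1b (0.88 ± 0.52) and Oas1a (0.72 ± 0.25) overlapped, each through the third double-knockout library. limma called 0 members and 0 of all genes (0.0%), with an adjusted p of 1.0 for each member. At an unadjusted p of 0.05 it gave 4 members, Oas1a, Oas1g, Oas3 and Oasl1, against 0.364% of all genes in that direction. The double knockout had lower sums of T cell (3.53 to 11.1 against 12.8 to 30.3) and plasmacytoid dendritic cell markers (2.64 to 4.88 against 7.70 to 46.2) than MDA5 KO. Its macrophage sum was also lower (1780000 to 2060000 against 2140000 to 2360000), but most of that sum was Lyz2 (1500000 to 1750000 against 1850000 to 2060000). The macrophage markers Adgre1 (120000 to 125000 against 113000 to 124000) and Csf1r (86400 to 92100 against 77200 to 93700) overlapped. The part of these markers in the result was not tested.

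The authors' deposited table for that pair called 5 members higher, the background there being 0.117% of genes. These were Oas3 (log2 fold change 1.26, adjusted p 7.65e-11), Oasl2 (1.2, 7.02e-10), Oasl1 (1.04, 0.000733), Oas1g (0.85, 0.00208) and Oas1a (0.67, 0.00827). In the deposited log2 columns of the 3 tables with MDA5 KO, WT 3, SAMHD1 KO 2 or SAMHD1 MDA5 DKO 3 was shifted against the remaining 5 libraries. After that shift it equals the average over those 5 and carries nothing of its own. Oasl1 in that table stood at 8.63, 8.70 and 8.71 in MDA5 KO and at 9.41, 9.28 and 8.95 in the double knockout, where the last value is such a mean.

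The loss of SAMHD1 where MDA5 is present, SAMHD1 KO minus WT, gave a median of 1.15 over the members, against 0.03 over all genes, with 7 members above 0, as 51.7% of all genes were. In 4 members, Oas2, Oasl1, Oas1b and Oas1g, the SAMHD1 KO libraries lay above all WT libraries, which held for 12.3% of all genes. The log2 differences were 2.49 ± 0.88 for Oas2, 2.02 ± 0.60 for Oasl1, 1.46 ± 0.52 for Oas1b and 0.53 ± 0.29 for Oas1g. Oasl2 (1.27 ± 0.55), Oas3 (1.03 ± 0.46) and Oas1c (0.42 ± 0.34) overlapped, and Oas1a stood at -0.02 ± 0.25. The 95% interval of Oas1a ran from -0.56 to 0.53, and that of Oas2 from 0.58 to 4.4.

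limma called 0 members in SAMHD1 KO minus WT, as it did for all genes (0.0%), so the targeted Samhd1 was not called either (limma adjusted p 0.312). The adjusted p of the members ran from 0.312 to 0.978. At an unadjusted p of 0.05 limma gave 5 members higher, against 9.87% of all genes. The authors' deposited table called 1 member higher, Oasl1, with a log2 fold change of 1.31 and an adjusted p of 0.0459, against 0.415% of genes. These values leaned on WT 3: without it the median over the members was 0.58, and Oas2 stood at 1.31, Oasl1 at 1.18, Oasl2 at 0.57, Oas3 at 0.53, Oas1c at 0.02 and Oas1a at 0.18. In the recovered reads, Oas2 differed by 1.34 with both WT 3 and SAMHD1 KO 2 left aside, and by 4.78 between these libraries alone. With weights for library quality limma called 7 of the 8, all but Oas1c, and 45.1% of all genes.

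**Figure D3:**
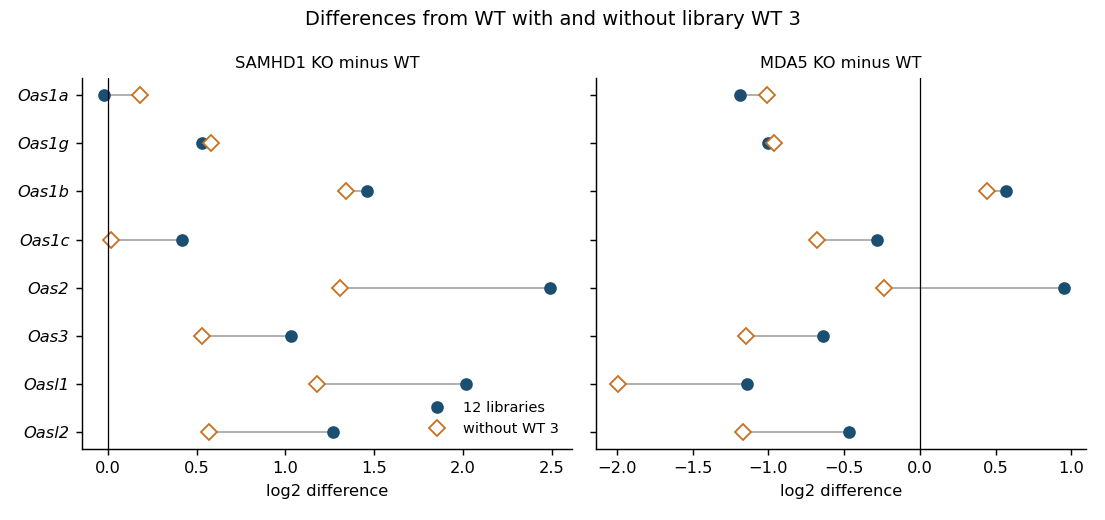
Log2 differences of the 8 OAS genes from WT in SAMHD1 KO (left) and MDA5 KO (right), with all 12 libraries (circles) and without WT 3 (diamonds). Leaving out WT 3 moves Oas2 from 2.49 to 1.31 on the left and from 0.95 to -0.24 on the right, while Oas1g stays at 0.53 to 0.58 and at -1.0 to -0.96.

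MDA5 KO minus WT gave a median of -0.55 over the members, against 0.08 over all genes, with 2 members above 0, as 54.4% of all genes were. Oas1a was lower by a log2 difference of -1.19 ± 0.25 and Oas1g by -1.0 ± 0.29, and in both all MDA5 KO libraries lay below all WT libraries, as in 14.2% of all genes. Both had a limma adjusted p of 0.196. Oasl1 stood at -1.14 ± 0.60, Oas3 at -0.64 ± 0.46, Oasl2 at -0.47 ± 0.55 and Oas1c at -0.28 ± 0.34, while Oas2 at 0.95 ± 0.88 and Oas1b at 0.57 ± 0.52 were on the other side of 0. These 6 overlapped between the genotypes. limma called 0 members and 1 of all genes (0.00661%), Ifih1, and gave 2 members, Oas1a and Oas1g, at an unadjusted p of 0.05, against 10.1% of all genes in that direction. These 2 share stretches of transcript, so reads may be divided between them and they may not be independent. The 3 summed markers of large peritoneal macrophages were lower in MDA5 KO (56500 to 81300) than in WT (82700 to 95600). Gata6, a small part of that sum, was not lower by itself: it overlapped, at 6620 to 7620 in MDA5 KO and 4900 to 7040 in WT. The rest of that sum was Icam2 and Timd4, whose values are not given singly here. The part of these markers in the result was not tested.

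Without WT 3, the median of MDA5 KO minus WT was -0.98, with Oasl1 at -1.99, Oasl2 at -1.17, Oas3 at -1.15, Oas1c at -0.68 and Oas2 at -0.24. Without WT 1 the median was -0.07. Oas1a (-1.01) and Oas1g (-0.96) moved little without WT 3. The authors' deposited table called 3 members lower, Oas1a (log2 fold change -0.85), Oasl2 (-0.94) and Oas3 (-0.93), against 1.06% of genes.

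SAMHD1 MDA5 DKO minus WT gave a median of 0.70 over the members, against 0.07 over all genes, with 7 members above 0, as 53.1% of all genes were. Oas2 was higher by a log2 difference of 2.32 ± 0.88, Oas1b by 1.45 ± 0.52 and Oasl1 by 1.24 ± 0.60. Oas3 (0.70 ± 0.46), Oasl2 (0.70 ± 0.55), Oas1c (0.29 ± 0.34) and Oas1g (0.02 ± 0.29) followed, and Oas1a stood at -0.47 ± 0.25. The libraries overlapped in all 8, while 17.5% of all genes lay wholly higher and 17.1% wholly lower in the double knockout. limma called 0 members and 1 of all genes (0.00661%), and gave 2 members, Oas1b and Oas2, at an unadjusted p of 0.05, against 15.0% of all genes in that direction. The summed markers of large peritoneal macrophages (60600 to 82500 against 82700 to 95600) and of T cells (3.53 to 11.1 against 13.5 to 222) were lower in the double knockout than in WT, as were those of mast cells. Gata6, a small part of the first of these sums, overlapped by itself (5440 to 7140 against 4900 to 7040). The rest of the first sum was Icam2 and Timd4, whose values are not given singly here. The part of these markers in the result was not tested.

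The authors' deposited table of that pair called Oas2 (log2 fold change 1.93, adjusted p 7.43e-07) and Oas1b (1.2, 0.0198) higher, against 3.56% of genes. Limma on the deposited log2 values of the table called Oas2 as well, at 2.18 with an adjusted p of 0.035, as it did 8.08% of all genes. In those columns Oas2 stood at 9.85, 9.39 and 9.01 in WT and 11.44 and 11.33 in the first 2 double-knockout libraries. SAMHD1 MDA5 DKO 3 was the highest of the 6 libraries after the shift, which moved all 6, although it had the lowest normalised reads of its genotype, 1571. On the recovered reads Oas2 passed without WT 1 (3.03, adjusted p 0.0491), where 11.8% of all genes passed, a share close to 1 of 8 members, and it stood at 1.13 without WT 3. The median over the members was 0.13 without WT 3, 1.21 without WT 1 and 1.06 without SAMHD1 MDA5 DKO 3.

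Adding the loss of MDA5 to that of SAMHD1, SAMHD1 MDA5 DKO minus SAMHD1 KO, gave 8 differences below 0, from -0.77 for Oasl1 to -0.01 for Oas1b, with a median of -0.39 against 0.02 over all genes, of which 51.7% were above 0. Oas1a (-0.46 ± 0.25) and Oasl1 (-0.77 ± 0.60) were lower in all 3 double-knockout libraries than in any SAMHD1 KO library, as were 9.13% of all genes. Oasl2 (-0.57 ± 0.55), Oas1g (-0.51 ± 0.29), Oas3 (-0.33 ± 0.46), Oas2 (-0.17 ± 0.88) and Oas1c (-0.13 ± 0.34) overlapped. limma called 0 members, and 2 of all genes (0.0132%), and at an unadjusted p of 0.05 it gave 0 members, against 3.52% of all genes higher and 5.29% lower. The authors' deposited table called 0 members as well, against 0.352% of genes higher and 1.48% lower. Without the third double-knockout library the median was -0.12, with Oasl1 still at -0.46, while Oas1b stood at 0.63 and Oas2 at 0.49, above 0. With weights for library quality 2 members passed, Oas1a and Oas1g, which is a smaller share than the 44.9% of all genes called under those weights. The summed erythroid markers were lower in the double knockout (0.0 to 84.9) than in SAMHD1 KO (372 to 585), and their part in the result was not tested.

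The test of whether MDA5 loss had a different effect with and without SAMHD1, taken as the difference of the double knockout from SAMHD1 KO less that of MDA5 KO from WT, called 0 members and 0 of all genes (0.0%) in limma. At an unadjusted p of 0.05 it gave 0 members, against 0.859% of all genes above 0 and 2.35% below. Oas1a had the largest positive value, 0.73 ± 0.35 with an unadjusted p of 0.0594, and Oas2 the largest negative one, -1.12 ± 1.24. The intervals were wide, running for Oas1a from -0.03 to 1.5 and for Oas2 from -3.82 to 1.58, and no difference of effect was detected in this fit. With weights for library quality Oasl1 passed (1.24 ± 0.36, limma adjusted p 0.0431), as did 8.81% of all genes. Most pairs of the comparisons above share the libraries of a genotype, and their values are given side by side for that reason.

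Pde12, which degrades 2-5A, ran from 742.2 to 1592 normalised reads over the 12 libraries and differed by -0.39 ± 0.27 in SAMHD1 KO minus WT. Abce1, a ribosome recycling factor, differed by -0.58 ± 0.25 in that comparison, with all genotypes overlapping WT. Eif2ak2, the double-stranded RNA kinase PKR, gave 2760, 1886 and 332.4 in WT, against 2958, 2445 and 2400 in SAMHD1 KO, a difference of 1.11 ± 0.56. It lay at 1816 to 2106 in MDA5 KO and at 2296 to 2764 in the double knockout, and WT 3 was the lowest of the 12. Irf7, a transcription factor of the interferon response, was chosen after its values were seen. It gave 2852, 2140 and 1323 normalised reads in WT, against 6120, 3409 and 3514 in SAMHD1 KO, without overlap, a difference of 1.06 ± 0.33 with a limma adjusted p of 0.312. It gave 1224, 1140 and 1525 in MDA5 KO and 3058, 2536 and 1593 in the double knockout.

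Over 17 genes of the pathway besides the members, which are the subunits of the interferon receptor, STAT and IRF factors, other RNA sensors, the targeted genes and genes such as Pde12, all 17 were tested. In SAMHD1 KO minus WT 12 were above 0 and 5 below, with a median of 0.38, and limma called 0 of them. At an unadjusted p of 0.05 it gave 4 higher, against 9.87% of all genes, and 2 lower, Abce1 and the targeted Samhd1, against 5.57%. Samhd1 had the largest difference, -1.91 ± 0.37. In SAMHD1 KO minus MDA5 KO the list's median was 0.38, with 11 above 0, against 48.9% of all genes, and 6 below. limma called 1, Ifih1, against 0.00661% of all genes. It gave 4 higher at an unadjusted p of 0.05, among them Ifih1, against 4.64% of all genes, and 1 lower, the targeted Samhd1. Libraries did not overlap for 8 higher, against 7.15% of all genes, and for 2 lower. In SAMHD1 MDA5 DKO minus MDA5 KO the median was 0.41, with 12 above 0, 5 below and 0 called, and 2 higher and 1 lower, the targeted Samhd1, at an unadjusted p of 0.05, against 0.364% and 0.654% of all genes. Ifih1 was the 1 gene called in MDA5 KO minus WT and in SAMHD1 MDA5 DKO minus SAMHD1 KO, where the list's medians were 0.05 and 0.00. At an unadjusted p of 0.05 limma gave 0 higher and 2 lower in SAMHD1 MDA5 DKO minus SAMHD1 KO, against 3.52% and 5.29% of all genes. The 2 lower were the targeted Ifih1 and Irf7 (-0.86 ± 0.33). In MDA5 KO minus WT limma gave 1 higher at that p and 1 lower, the targeted Ifih1, against 10.1% of all genes lower. In SAMHD1 MDA5 DKO minus WT limma called 0, with a median of 0.29. It gave 2 higher and 2 lower there, the latter the targeted genes, at an unadjusted p of 0.05, against 15.0% and 12.8% of all genes.

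The members did not vary as 1 block over the 12 libraries. On the log2 scale, Pearson's r was 0.95 between Oas3 and Oasl2, 0.93 between Oas3 and Oasl1, and 0.92 between Oasl1 and Oasl2. Oas1a and Oas1g, which share stretches of transcript and promoter, correlated at 0.90. Oas2 was closest to Oasl2 (0.85), and Oas2 and Oas1a correlated at 0.02. Oas1a was apart from most: its r with the members other than Oas1g was at most 0.49, and in WT 3, where Oas2 and Oasl1 were at their lowest of the 12 libraries, Oas1a was at its highest, 5453. These correlations describe 12 libraries that share genotype and the difference of WT 3, and carry no test.

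**Figure D4:**
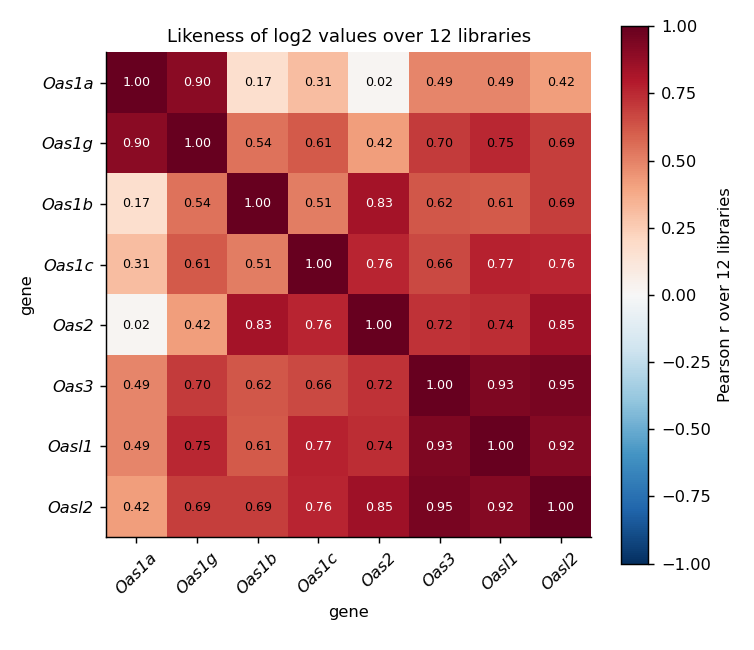
Pearson's r of log2(normalised reads + 1) between the 8 OAS genes over 12 libraries, from -1 (blue) to 1 (red). Oas3, Oasl1 and Oasl2 correlate at 0.92 to 0.95, Oas1a and Oas1g at 0.90, and Oas1a and Oas2 at 0.02.

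The genes outside the family whose levels over the 12 libraries were most like the mean of the members, among 15122 compared, were Iigp1 (r 0.972), Tgtp2 (0.965), Ifi206 (0.951), Rsad2 (0.947) and Trim30a (0.943). Iigp1 and Tgtp2 encode immunity-related GTPases, and Rsad2 encodes viperin. Iigp1 gave 723.3, 427.3 and 167.5 normalised reads in WT, against 1818, 1722 and 1668 in SAMHD1 KO. It gave 319.8, 99.91 and 381.6 in MDA5 KO, and 1301, 1380 and 407.7 when both genes were knocked out. Its SAMHD1 KO libraries were the highest of the 12, and SAMHD1 MDA5 DKO 3 was far below the other two of its genotype.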

How the data were processed

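The authors deposited 6 tables, each for a pair of genotypes. Per the submitters' processing notes, the authors used STAR, Salmon, R 4.1.2 and DESeq2 with GRCm38 and mm10; the labels' extraction note lists bedtools 2.16.2, pBWA 0.5.9-r32-MPI-patch2 and annotation from Ensembl Gene 61. Which of these produced the tables is not stated. Strandedness is not given in the sources used here. Each library has a column of log2 values deposited by the authors, which by their form are variance-stabilised and then shifted gene by gene between WT 3, SAMHD1 KO 2 and SAMHD1 MDA5 DKO 3 and the other libraries. The shift moved these named libraries in the same direction and the others by the same amount in the opposite direction. The named libraries are called the shifted libraries below, although no library of a table was left unmoved. A further deposited column is a signal: scaled reads averaged over a table. The deposited log2 fold changes, p-values and gene lengths are the authors' own. Their adjusted p-values were used as deposited.

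Whole reads were solved from the stabilised values and means of the 6 tables: 100.0% came out whole within 0.05 reads, with 0 disagreements between tables, and the method was tested on simulated data. Since they are not a deposited count column, no count model was fitted. Median-of-ratios size factors scaled the reads, and limma 3.58.1 in R 4.3.3 (variance trend, robust moderation) was fitted to log2(value + 1) of all 12 libraries with genotype as the only term. Genes needed a CPM of 0.228 (10 reads in the median library) in 3 libraries, and Benjamini-Hochberg adjustment ran over 15130 genes at 0.05. Named genes are all members, the other Oas1 genes of the tables, Pde12, Abce1 and the 2 further pathway genes with the largest difference in either direction in SAMHD1 KO minus WT (Samhd1 and Eif2ak2), the targeted genes, and the 5 genes most like the members' mean. Some genes of the pathway list are not reported here, and its counts leave them out. Members and lists were chosen with earlier results of these data known. The comparison of libraries of a genotype with counting noise took each read as an independent count, without molecular identifiers. Alternatives were another scaling, pseudocounts of 0.5 and 8, no filter, other variance models and weights, the deposited values, 2 genotypes alone, a term for the shifted libraries, a replicate block and leaving out each library.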

Additional observations from a re-analysis of the deposited data

How the results depend on the processing

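With weights for library quality, whose iteration stopped before it converged, limma called 7 members in SAMHD1 KO minus WT, 2 in SAMHD1 MDA5 DKO minus SAMHD1 KO, 3 in MDA5 KO minus WT, 1 in SAMHD1 MDA5 DKO minus MDA5 KO, 3 in SAMHD1 MDA5 DKO minus WT, 8 in SAMHD1 KO minus MDA5 KO and 1 in the interaction, against 0 in each in the unweighted fit of all 12 libraries described above. Under those weights it called 45.1%, 44.9%, 29.0%, 0.0132%, 38.1%, 44.4% and 8.81% of all genes in the same order. In SAMHD1 KO minus MDA5 KO the count was 4 with the 2 genotypes alone, 1 with a term for the shifted libraries (0.0727% of all genes) and 2 without those libraries (0.139%), an alternative chosen after seeing the data, and 0 to 3 with a library left out. In SAMHD1 MDA5 DKO minus WT it was 1 on the deposited values and 0 to 1 with a library left out. The cause of these changes was not tested. With a library left out, the median over the members ran from 0.58 to 1.66 in SAMHD1 KO minus WT, from 0.13 to 1.21 in SAMHD1 MDA5 DKO minus WT, from 1.17 to 1.58 in SAMHD1 KO minus MDA5 KO, from 0.81 to 1.57 in SAMHD1 MDA5 DKO minus MDA5 KO, from -0.98 to -0.07 in MDA5 KO minus WT, from -0.53 to -0.12 in SAMHD1 MDA5 DKO minus SAMHD1 KO and from -0.16 to 0.54 in the interaction.

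Some single differences changed sign, not all of them close to 0. With quality weights, Oas1a stood at 0.38 in SAMHD1 KO minus WT; Oas1b at 0.33, Oas2 at 0.27 and Oas3 at 0.18 in SAMHD1 MDA5 DKO minus SAMHD1 KO; Oas2 at -0.06 in MDA5 KO minus WT; Oas1c at -0.01 in SAMHD1 MDA5 DKO minus WT; and Oas2 at 0.33 and Oasl2 at 0.65 in the interaction. Without the shifted libraries, Oas1a stood at 0.18 and Oas1c at -0.08 in SAMHD1 KO minus WT, Oas1b at 0.73 and Oas2 at 0.45 in SAMHD1 MDA5 DKO minus SAMHD1 KO, Oas2 at -0.24 in MDA5 KO minus WT, Oas1c at -0.11 in SAMHD1 MDA5 DKO minus WT, and Oas1b at 0.29, Oas2 at 0.69 and Oasl2 at 0.89 in the interaction. With a term for them Oasl2 stood at 0.34 in the interaction. Upper-quartile scaling gave 0.00 for Oas1b in SAMHD1 MDA5 DKO minus SAMHD1 KO and -0.04 for Oas1g in SAMHD1 MDA5 DKO minus WT. Oas1b in SAMHD1 MDA5 DKO minus SAMHD1 KO was 0.05 with limma-voom weights and 0.03 on the deposited values, on which Oas2 in MDA5 KO minus WT was -0.16. With a library left out, the ranges that crossed 0 were -0.24 to 1.66 for Oas2 and -1.17 to 0.03 for Oasl2 in MDA5 KO minus WT; -0.22 to 0.18 for Oas1a in SAMHD1 KO minus WT; -0.47 to 0.63 for Oas1b, -0.52 to 0.49 for Oas2 and -0.53 to 0.06 for Oas3 in SAMHD1 MDA5 DKO minus SAMHD1 KO; -0.11 to 0.56 for Oas1c, -0.20 to 0.30 for Oas1g and -0.00 to 1.20 for Oasl2 in SAMHD1 MDA5 DKO minus WT; and, in the interaction, -1.04 to 0.06 for Oas1b, -0.12 to 0.54 for Oas1c, -1.83 to 0.06 for Oas2, -0.19 to 0.81 for Oas3, -0.13 to 1.21 for Oasl1 and -0.60 to 0.59 for Oasl2.

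The labels do not say that replicate numbers pair the libraries, and they were not taken to pair them. The deviations of same-numbered libraries correlated above 0.1 in 8 of 18 pairs, a larger share than the 4 of 36 among the other pairs. They did not do so in every pair of any comparison, and whether the numbers mark a shared origin was not tested. With the replicate block, limma called 0 members in each comparison, and the median over the members of SAMHD1 KO minus MDA5 KO was 1.53. Treating SAMHD1 KO 2 and 3 as 1 library, chosen after seeing the data, gave a median of 1.55 there. Oasl1 and Oas1b had the fewest reads of the members in a library, 12 and 44, while the standard error was largest for Oas2 (0.88), which had at least 112.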
